A study of Saccharomyces cerevisiae with 23 samples.

Results

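RPR1 and SNR52 are 2 small RNA genes on chromosome V of Saccharomyces cerevisiae that RNA polymerase III transcribes together with a leader, a stretch of RNA ahead of the mature molecule. Ty1 insertion sites were collected around them, from 2 kb upstream of the annotated 5′ end, through the gene, to 1 kb downstream of the 3′ end. The genes were chosen by name, without use of their counts, from the 6431 nuclear genes of the RefSeq table of the R64 build. Earlier results of these data were known at that time. RPR1 (YNCE0007C) lies on the C strand at 117667 to 118035 and is 369 bp long, and SNR52 (YNCE0020C) lies on the C strand at 431129 to 431220 and is 92 bp long. In galactose the windows held 278 sites at RPR1 and 322 at SNR52, of 152129 nuclear sites, and in dextrose 13 and 17, of 11208. Of the RPR1 sites, 52 in galactose and 7 in dextrose lay in URA3, a gene that the strain label gives as deleted.

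The 2 insertion libraries came from the haploid laboratory strain BY4741 (MATa, his3delta1 leu2delta0 ura3delta0 met15delta0) carrying the plasmid pJEF2365. The series also holds 21 nucleosome-mapping samples, which were not analysed here. For 1 library the cells spent 24 h in 2% galactose, the sugar that by the series title switches Ty1 on, and for the other 24 h in 2% dextrose. Both cultures came from medium with 2% raffinose and 0.1% dextrose. Both were afterwards grown in dextrose, at first without 5-FOA and then with 5-FOA at 1 mg/mL, which is toxic to cells that express URA3. The labels name both complete medium and medium without uracil for the 24 h step, and which was used is not settled here. Each medium had a single library, so the media could not be tested against each other. The 95% intervals given are exact, Poisson for counts and Clopper-Pearson for shares. They cover counting error only, because a single library per medium gives no spread between replicates. Amplified reads that lack molecular identifiers cannot stand for separate molecules, so even the counting error may be larger than these intervals show. Intervals of percentiles and medians are exact order-statistic intervals.

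RNA polymerase III is brought to a gene by the assembly factor TFIIIC, which binds the A box and the B box, and by TFIIIB, which TFIIIC places just upstream of the transcription start. In tRNA genes the boxes lie inside the mature sequence. In RPR1 and SNR52 they lie in the leader, which is removed from the transcript, so the annotated 5′ end of the mature RNA is not the start of transcription. RPR1 RNA is the RNA subunit of RNase P, the enzyme that cuts the leaders from tRNA precursors, and snR52 is a C/D box small nucleolar RNA that guides methylation of ribosomal RNA. Ty1, a copia-type retrotransposon, is known to insert upstream of genes that RNA polymerase III transcribes, through contact of its integrase with that polymerase, and into nucleosomes there.

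Both genes had many sites upstream. In galactose the upstream 1 kb of RPR1 held 164 sites (95% interval 140 to 191) and that of SNR52 held 191 (95% interval 165 to 220). The comparison set was 250 isolated tRNA genes, which had no other tRNA gene and no other listed RNA polymerase III gene from 2 kb upstream to 1 kb downstream. They had a median of 200 galactose sites (quartiles 118 and 301). Of these tRNA genes, 156 (62.4%) had at least as many sites as RPR1 and 132 (52.8%) at least as many as SNR52, so both members were in the middle of the tRNA range. Protein-coding genes whose upstream 1 kb lay over 2 kb from the same RNA polymerase III genes had a median of 7 sites, and of 5328 such genes 1 (0.0188%) had as many as RPR1 and 0 (0%) as many as SNR52. SCR1, which encodes the signal recognition particle RNA, had 377 upstream sites, and SNR6, which encodes U6 spliceosomal RNA, had 280. RNA170 had 20 and ZOD1 had 18, so RPR1 and SNR52 lay between these pairs.

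In dextrose RPR1 had 5 upstream sites (95% interval 1.62 to 11.7) and SNR52 had 14 (95% interval 7.65 to 23.5), against a median of 7 at isolated tRNA genes (quartiles 3 and 11.8). At least as many dextrose sites as RPR1 were found at 68.4% of the isolated tRNA genes, and at least as many as SNR52 at 18.4%. Of the protein-coding genes, 11 (0.206%) had at least as many as RPR1 and 1 (0.0188%) at least as many as SNR52. As a share of each library, SNR52 upstream sites made up 0.126% in galactose (95% interval 0.108 to 0.145) and 0.125% in dextrose (95% interval 0.0683 to 0.209). The RPR1 shares were 0.108% in galactose (95% interval 0.0919 to 0.126) and 0.0446% in dextrose (95% interval 0.0145 to 0.104). Sites upstream of the isolated tRNA genes made up 34.4% of all sites in galactose and 18.5% in dextrose. Set against 1000 tRNA sites of the same library, SNR52 had 3.65 sites in galactose (95% interval 3.15 to 4.20) and 6.74 in dextrose (95% interval 3.69 to 11.3), and RPR1 had 3.13 (95% interval 2.67 to 3.65) and 2.41 (95% interval 0.782 to 5.62). With a single library per medium these values carry no test of a difference.

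**Figure D1:**
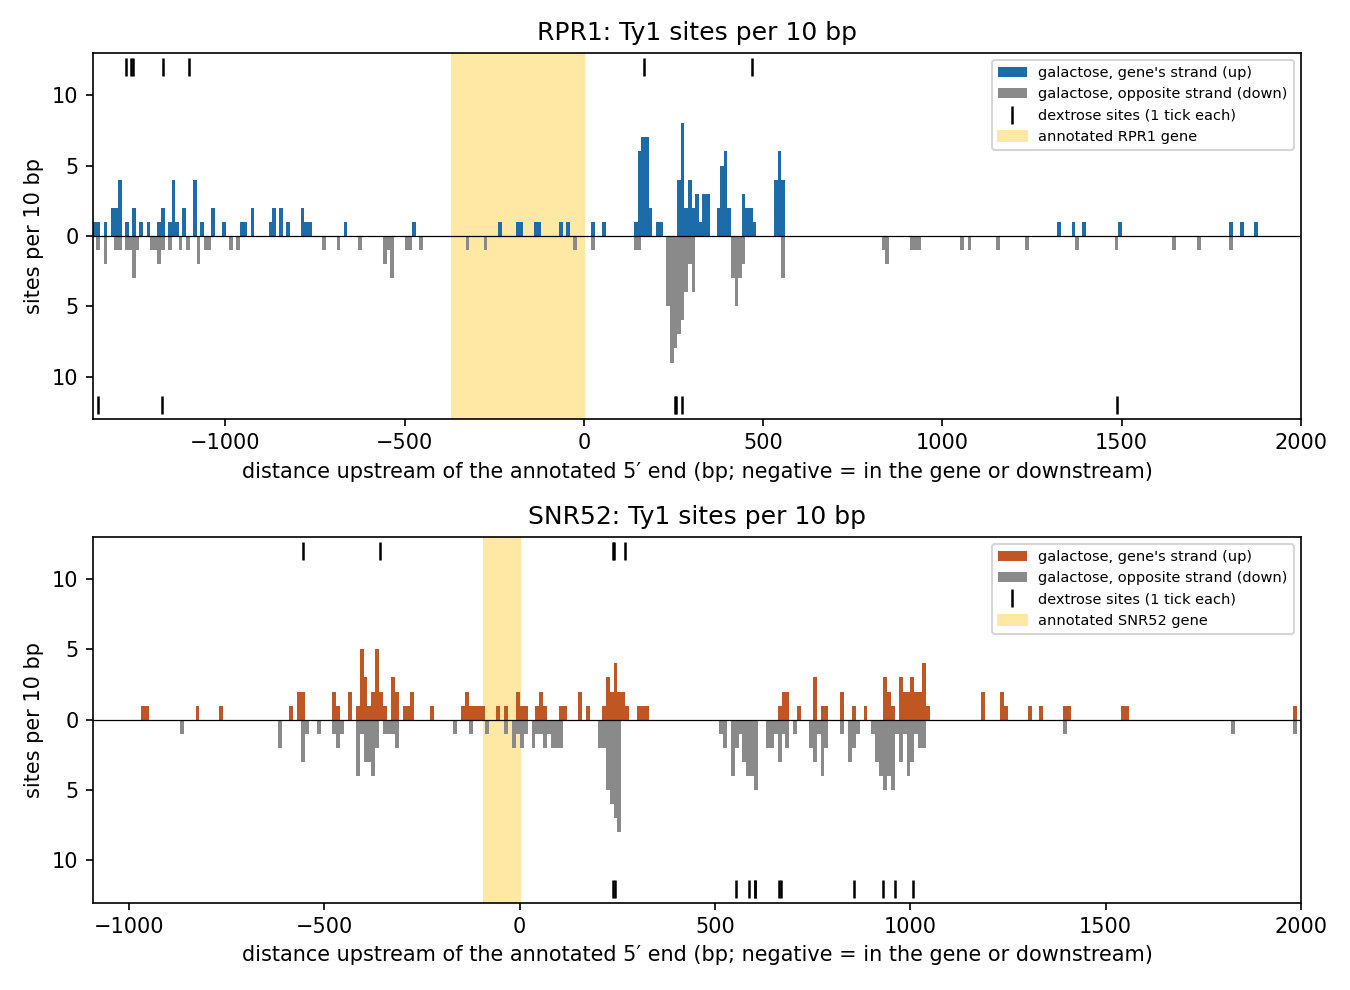
Ty1 sites per 10 bp around RPR1 (upper panel) and SNR52 (lower panel) against the distance upstream of the annotated 5′ end in bp, with negative values in the gene (shaded) and downstream of it. Bars are galactose sites, on the gene's strand above the zero line and on the opposite strand below it, and black ticks are single dextrose sites. Upstream of RPR1 the sites begin in bulk at 145 bp, and upstream of SNR52 the first dense group lies between 204 and 267 bp.

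The sites upstream of RPR1 began far from the annotated start. The first 144 bp held 3 galactose sites, at 25, 29 and 54 bp, and no site on either strand lay at 55 to 144 bp, which allows up to 3 sites as far as counting goes. From 145 bp on they were dense. The stretch from 145 to 190 bp held 25 sites, of which 23 lay on the gene's strand and 2 on the opposite strand. The stretch from 191 to 230 bp held 2 sites. The stretch from 231 to 320 bp held 68 sites, 23 on the gene's strand and 45 on the opposite strand, and its highest 10 bp bin was 271 to 280 bp with 14 sites. In the densest part, 231 to 300 bp, 42.1% of all combinations of position and strand were used, so further insertions at used positions would not have been counted. These stretches were set after the profile was seen and carry no test.

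The 5 dextrose sites upstream of RPR1 fell in the same places, at 168, 255, 258, 273 and 468 bp. The site at 168 bp lay on the gene's strand and the next 3 on the opposite strand, as most galactose sites there did. All 5 were at a position and strand also used in galactose, as were 11 of the 14 at SNR52, and each of these 14 lay within 5 bp of a galactose site of its strand. Upstream of isolated tRNA genes 90.2% of the dextrose sites were at a galactose site. The read names of both libraries carry 1 and the same run and lane, and whether any dextrose site came from the galactose library was not tested.

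SNR52 had a different start. Its first 120 bp held 24 galactose sites, 8 on the gene's strand and 16 on the opposite strand, and 3 more followed at 121 to 200 bp. The first dense group lay at 204 to 267 bp, with 44 sites, 14 on the gene's strand and 30 on the opposite strand. The median distance in that group was 242.5 bp for the gene's strand and 241 bp for the opposite strand. Of the dextrose sites, 4 lay within that group, at 238, 238, 242 and 245 bp, and 1 just beyond it, at 270 bp. None lay in the first 200 bp, where galactose had 27 sites. A count of 0 allows up to 3 dextrose sites there as far as counting goes.

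Pooled over the isolated tRNA genes, 52363 galactose sites lay in the upstream 1 kb, with a first peak at 91 to 100 bp (1491 sites) and a second at 171 to 180 bp (1285 sites). Later peaks stood at 271 to 280 bp with 968 sites and at 351 to 360 bp with 882. The span from 71 to 130 bp, which holds the first tRNA peak, took 14.1% of these tRNA sites (95% interval 13.8 to 14.4). At RPR1 it took 0 of 164 sites (95% interval 0 to 2.22%), and at SNR52 it took 9 of 191, 4.71% (95% interval 2.18 to 8.76). The first 140 bp held 1.83% of the RPR1 sites (95% interval 0.379 to 5.25) and 12.6% of the SNR52 sites (95% interval 8.22 to 18.1), against 16.2% of the pooled tRNA sites (95% interval 15.9 to 16.6). Of 241 isolated tRNA genes with at least 20 upstream sites, 2 (0.83%) had a share as low as that of RPR1 and 71 (29.5%) one as low as that of SNR52.

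**Figure D2:**
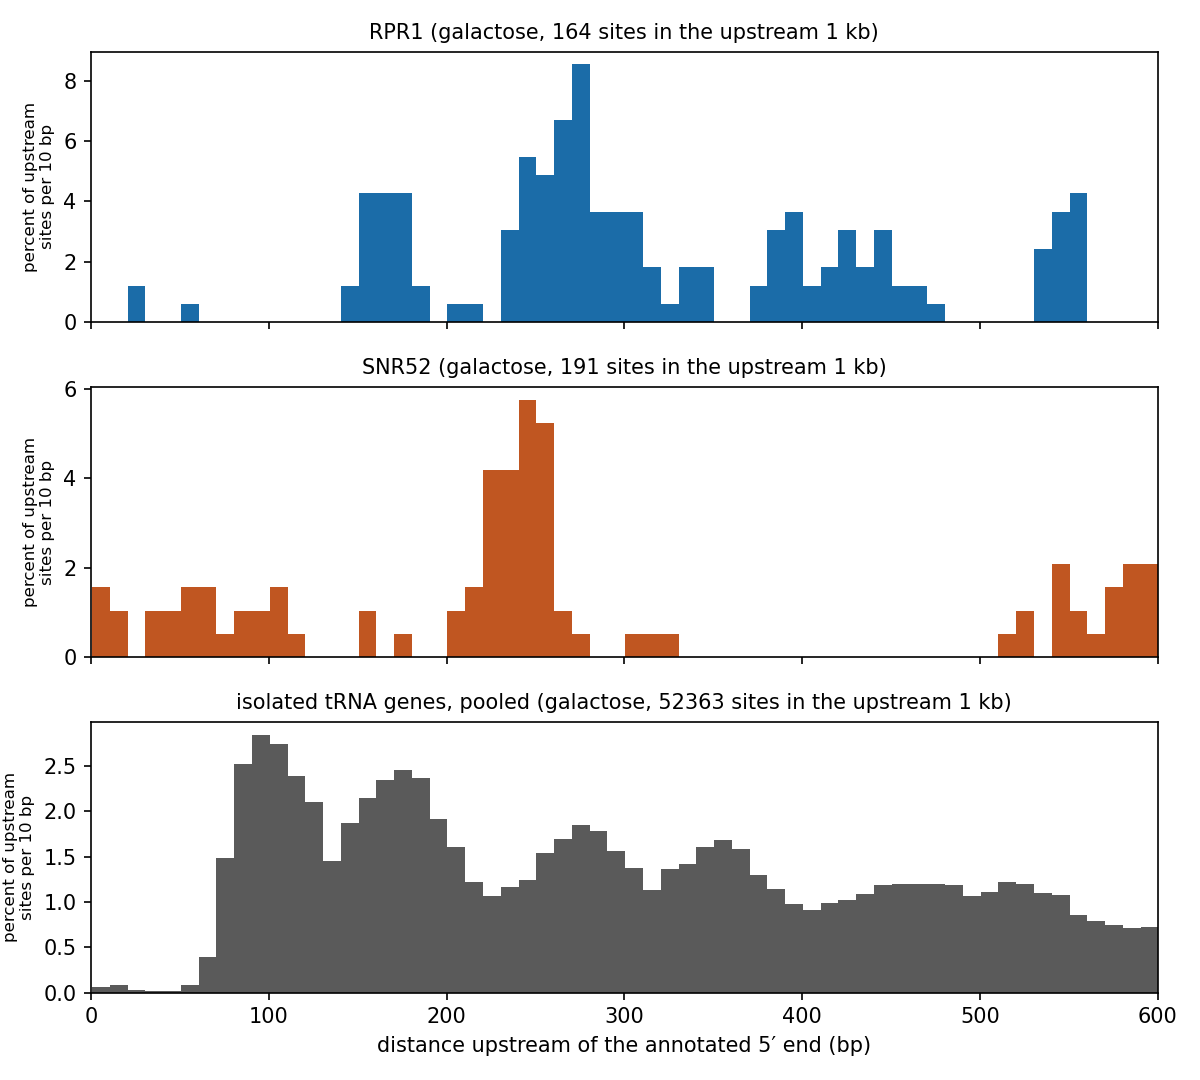
Percent of the upstream 1 kb sites per 10 bp in galactose for RPR1, SNR52 and the pooled isolated tRNA genes, against the distance upstream of the annotated 5′ end in bp, shown to 600 bp. The first tRNA peak at 91 to 100 bp has no counterpart at RPR1, where sites rise at 145 bp, and the first tall group of SNR52 stands at 204 to 267 bp.

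The offset from tRNA genes was measured in several ways. The first dense stretch was taken as the nearest site from which 30 bp held at least 5% of a gene's upstream sites, a definition made after the profiles were seen. It began at 145 bp at RPR1 and at 204 bp at SNR52, against a median of 73 bp over the 241 tRNA genes (quartiles 68 and 82), which is 72 bp and 131 bp farther upstream. Of the tRNA genes, 210 lay within 25 bp of their median, 12 (4.98%) began at least as far out as RPR1 and 4 (1.66%) at least as far out as SNR52. The 5% was of all sites in the upstream 1 kb, of which 60.7% at SNR52 lay at 501 to 1000 bp. That raised the count needed near SNR52, where the first 120 bp held 24 sites. A cutoff on the nearer sites alone was not run, so how far the SNR52 start rests on its far sites was not tested. Both other definitions were stricter. When the stretch had to hold 10% of the sites, RPR1 still began at 145 bp and SNR52 at 217 bp, and 197 tRNA genes had such a stretch. Under that definition 58 of them began at least as far out as RPR1 and 30 at least as far out as SNR52, so the separation from the tRNA genes was smaller. With 5% of the sites in 20 bp, RPR1 began at 145 bp and SNR52 at 217 bp, and 40 and 11 of the 241 tRNA genes began at least as far out. SCR1 began at 80 bp under the first definition, at 170 bp under the one with 10% and at 159 bp under the one with 20 bp, farther out than RPR1 under both of these. ZOD1 began at 127 bp under all 3 definitions.

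The whole profile was then compared. The pooled tRNA profile, smoothed over 21 bp, was moved along the smoothed profile of each member, and the shift with the highest Pearson correlation over 1000 positions was kept. Positions along a gene are not independent, so these correlations are descriptions. For RPR1 the highest correlation, 0.657, was at a shift of 77 bp upstream, against 0.426 without a shift, and a second maximum of 0.519 lay at 159 bp. The shift was 69 bp on the gene's strand alone and 155 bp on the opposite strand alone, and 165 bp when only the first 300 bp were used, so the size of the shift depended on the strand and span used. With the 3′ end of each interval in place of the 5′ end, the best shift was -100 bp for both RPR1 and SNR52, the edge of the search and the other direction. The galactose intervals under 96 bases had 25 different 3′ ends against 113 different 5′ ends at RPR1, and 23 against 71 at SNR52. The full-length intervals, 52 at RPR1 and 120 at SNR52, had 52 and 120 different 3′ ends. Whether the shared 3′ ends of the shorter intervals account for the -100 bp was not tested. For SNR52 the highest correlation was at 138 bp but reached only 0.184, against -0.213 without a shift. Over the first 300 bp it was 0.726 at 143 bp. With intervals of 96 bases only, 120 sites, the highest SNR52 correlation was -0.0541, at 131 bp, so no shift gave a positive correlation. Of the 241 tRNA genes, each set against the pooled profile of the others, 188 (78%) had a shift within 25 bp of 0, 40 (16.6%) had a shift of at least that of RPR1 and 29 (12%) of at least that of SNR52. Among the 124 tRNA genes whose correlation was at least that of RPR1, 7 (5.65%) had a shift as large. A correlation as low as that of SNR52 was found at 1 of the 241 (0.415%). Among the other single-copy genes the shift was 11 bp for SCR1, -4 bp for SNR6, -62 bp for RNA170 and -29 bp for ZOD1.

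**Figure D3:**
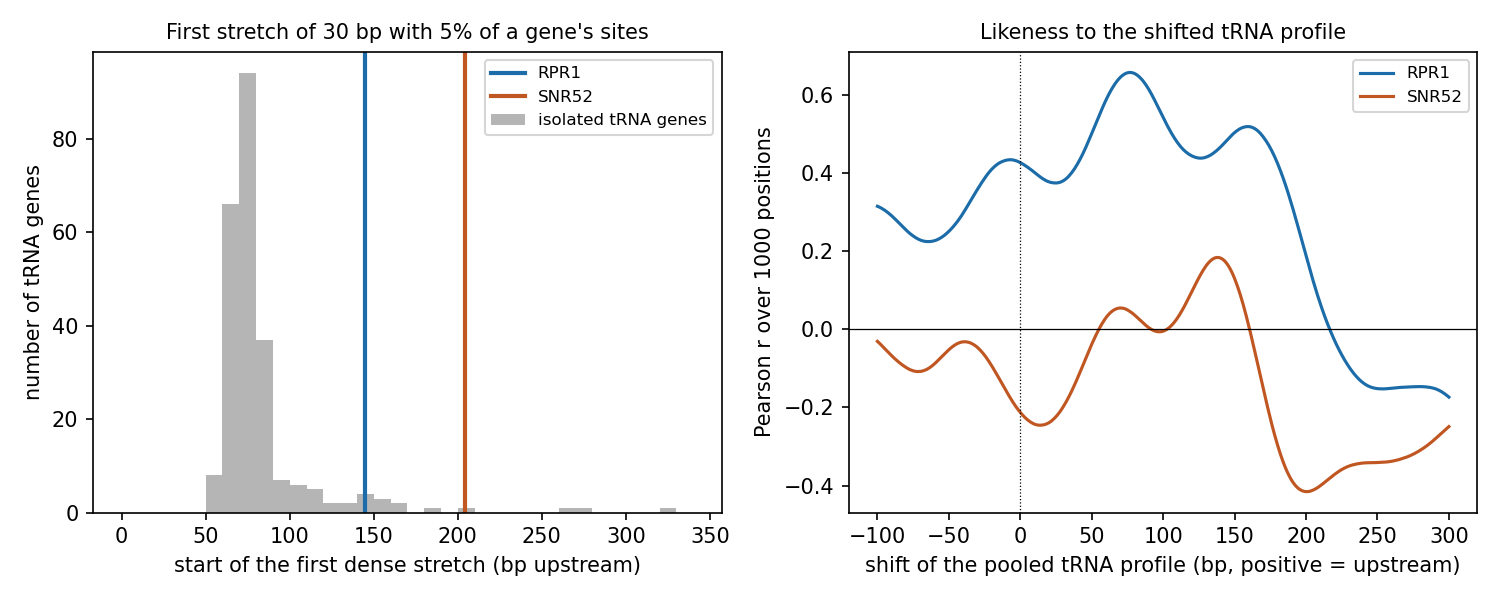
Left, the number of isolated tRNA genes by the start of their first dense stretch in bp upstream of the annotated 5′ end, with vertical lines for RPR1 at 145 bp and SNR52 at 204 bp. Right, the Pearson correlation of each member's galactose profile with the pooled tRNA profile shifted by the number of bp on the horizontal axis, highest at 77 bp for RPR1 and at 138 bp for SNR52.

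The 5th percentile of the upstream distances gave a different picture for the 2 genes. At RPR1 it was 153 bp (95% interval 54 to 166), and 4 of the 241 tRNA genes (1.66%) had a value that high. When sites of a strand within 5 bp of each other were merged, the RPR1 value fell to 39 bp on 29 merged sites, so the high value rests on counting each close site. Sites of the tRNA genes were not merged, so the merged value cannot be ranked among them. At SNR52 it was 54.5 bp (95% interval 11 to 84), and all 241 tRNA genes (100%) had a value at least that high, and with merging it was 43.9 bp. The first 60 bp held 12 of the SNR52 sites, 6.28% (95% interval 3.29 to 10.7), against 0.300% of the pooled tRNA sites (95% interval 0.255 to 0.350). Of the 24 SNR52 sites in the first 120 bp, 19 had an interval of full length and all 24 had the highest mapping score. Of the 44 sites in its first dense group at 204 to 267 bp, 15 had an interval of full length and 37 had the highest score.

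Farther upstream the 2 genes also differed. RPR1 is followed upstream by the end of PXP1, a gene for a peroxisomal protein on the same strand, after a spacer of 581 bp. That spacer held 158 of the 164 sites, and from 582 to 1000 bp, within PXP1, 6 sites were found, all on the opposite strand. From 1001 to 2000 bp there were 16. The part of PXP1 in the window had 15.5 sites per kb, against 272 per kb in the spacer. Of the RPR1 sites 14.0% lay at 501 to 1000 bp (95% interval 9.10 to 20.3), against 31.3% of the pooled tRNA sites, and 183 of the 241 tRNA genes (75.9%) had a share at least as high. The longest stretch without a site ran between 559 and 837 bp, and 16 of the 241 tRNA genes (6.64%) had a gap as long. At SNR52 the longest gap, between 325 and 519 bp, was matched or exceeded at 44 of them (18.3%).

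SNR52 faces GLC7, the gene for the catalytic subunit of protein phosphatase 1, across a spacer of 1274 bp with both genes pointing outward. The spacer held 216 galactose sites, 170 per kb, and 15 dextrose sites, and the part of GLC7 in the window held 10 and 0. Here 60.7% of the upstream 1 kb sites (95% interval 53.4 to 67.7) lay at 501 to 1000 bp, and 8 of the 241 tRNA genes (3.32%) had a share that high. The bins of 50 bp from 901 to 1050 bp held 22, 22 and 20 sites, more than any other bin beyond 300 bp. Between them and the first dense group was a stretch from 271 to 500 bp with 4 sites, 2.09% of the upstream sites (95% interval 0.573 to 5.28), against 29.8% of the pooled tRNA sites. The median distance was 594 bp at SNR52 (95% interval 549 to 670) and 289 bp at RPR1 (95% interval 274 to 313), against a median of 332 bp over the tRNA genes (quartiles 267 and 401). The dextrose medians were 594.5 bp at SNR52 and 258 bp at RPR1, with 14 and 5 sites.

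The strand of an interval depends on the orientation of the inserted Ty1. At RPR1 94 of 164 galactose sites, 57.3% (95% interval 49.4 to 65.0), lay on the gene's strand, and 177 of the 241 tRNA genes (73.4%) had a share no higher, against 51.9% of the pooled tRNA sites (95% interval 51.5 to 52.3). At SNR52 57 of 191, 29.8% (95% interval 23.5 to 36.9), lay there, and 4 of the 241 tRNA genes (1.66%) had a share that low. Within 500 bp the SNR52 share was 29 of 75, 38.7% (95% interval 27.6 to 50.6). Beyond 500 bp it was 28 of 116, 24.1% (95% interval 16.7 to 33.0). The rank among the tRNA genes was taken over the whole 1 kb only. In dextrose the numbers on the gene's strand were 2 of 5 at RPR1 and 3 of 14 at SNR52, and all 9 dextrose sites of SNR52 beyond 500 bp lay on the opposite strand. At SNR52 the gene's strand had no galactose site between 325 and 667 bp, and the opposite strand had none between 260 and 519 bp.

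Where an interval can be recovered depends on the next cut by MseI, the enzyme used to release the junctions. Among the 114 intervals under 96 bases upstream of RPR1 there were 113 different 5′ ends but 25 different 3′ ends, and 84 of the intervals ended in 4 groups of positions. Of these, 24 intervals on the gene's strand ended at 232 to 237 bp and 15 at 342 to 347 bp, and 31 on the opposite strand ended at 344 to 349 bp. At SNR52 74 such intervals had 71 different 5′ ends and 23 different 3′ ends, and 26 on the opposite strand, all starting at 223 to 260 bp, ended at 313 to 317 bp. The shortest interval in either library had 30 bases, so no site can be seen closer than that to a cut it is read toward. Whether the position of the cuts accounts for the gaps or for the uneven strands was not tested, as no genome sequence was used here.

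**Figure D4:**
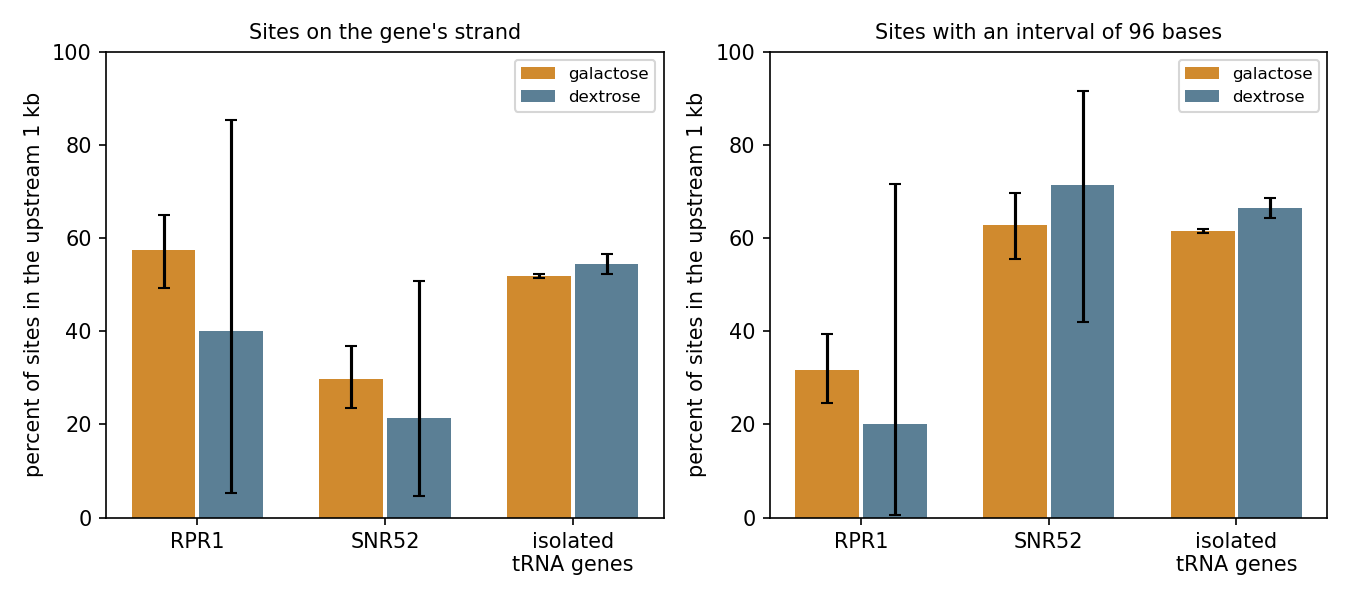
Percent of upstream 1 kb sites on the gene's strand (left) and with an interval of 96 bases (right) at RPR1, SNR52 and the pooled isolated tRNA genes, in galactose and in dextrose, with 95% Clopper-Pearson intervals as error bars. SNR52 has 29.8% on the gene's strand in galactose and RPR1 has 31.7% full-length intervals, each below the tRNA bars of 51.9% and 61.5%.

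Interval lengths differed between the genes. In galactose 31.7% of the RPR1 sites (95% interval 24.7 to 39.4) and 62.8% of the SNR52 sites (95% interval 55.6 to 69.7) had the full 96 bases, against 61.5% of the pooled tRNA sites. Intervals of at most 49 bases made up 27.4% at RPR1 and 6.28% at SNR52, against 11.5% at tRNA genes. In dextrose 1 of 5 RPR1 sites and 10 of 14 SNR52 sites were of full length. Nearly every site rested on 1 interval, with 166 intervals for the 164 RPR1 sites and 194 for the 191 SNR52 sites in galactose. The authors' file names state that duplicates were removed, so these numbers do not measure how well a site was supported. Over all nuclear sites there were 1.12 intervals per site in galactose and 1.03 in dextrose.

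The genes themselves held few sites by number. RPR1 had 10 galactose sites in 369 bp (27.1 per kb) and SNR52 had 9 in 92 bp (97.8 per kb). The SNR52 density was below the 191 per kb of its upstream 1 kb. It was above the 13.8 and 12.5 per kb of the parts of GLC7 and PMD1 in its window. Each gene had 0 sites in dextrose, which allows up to 3. Downstream, the 1 kb after RPR1 had 88 galactose sites and 7 dextrose sites, and the 1 kb after SNR52 had 87 and 2. The isolated tRNA genes had a median of 34 downstream sites in galactose. The ratio of downstream to upstream sites was 0.455 at SNR52, against tRNA quartiles of 0.101 and 0.366. Of the 241 tRNA genes with at least 20 upstream sites, 43 had a ratio at least as high as SNR52. Most downstream sites of RPR1 lay away from the gene. Of the 88 galactose sites, 10 lay in the spacer of 192 bp next to the gene and 9 in TIM9, a gene for a chaperone of mitochondrial import, while 52, with all 7 dextrose sites, lay in the part of URA3 that falls in the window. URA3 encodes the enzyme that makes 5-FOA toxic. The labels give the strain as ura3delta0, a deletion of that gene, so these intervals may not lie beside RPR1 in this strain. Whether they came from the plasmid was not tested. The 88 and 7 downstream sites include them, so the 88 is not like the tRNA median of 34. The first 600 bp after RPR1, short of URA3, held 29 galactose sites and 0 dextrose sites. At SNR52 67 of the 87 sites lay 201 to 500 bp beyond the 3′ end, with a maximum of 22 sites at 251 to 300 bp, and they were spread over both strands, 36 on the gene's strand and 31 on the opposite strand. All but 4 of the 87 lay in the spacer of 679 bp before PMD1, a gene for a regulator of early meiotic genes.

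By the profile in 20 bins of 50 bp, the tRNA genes most like RPR1 were YNCJ0017C on chromosome X (r = 0.882, 212 sites), YNCO0020C on chromosome XV (r = 0.877, 181 sites) and YNCM0027W on chromosome XIII (r = 0.845, 290 sites), against a median r of 0.388 over the 241 genes. Their shifts against the pooled tRNA profile were -3, -4 and 81 bp. For SNR52 the highest values were 0.323 (YNCE0028C, 28 sites), 0.310 (YNCO0023W, 45 sites) and 0.265 (YNCC0001C, 39 sites), and the median over the tRNA genes was -0.187. No isolated tRNA gene had a profile close to that of SNR52 by this measure. All these values come from 1 library and share its depth.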

How the data were processed

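Ty1 insertion sites were read from 2 deposited interval lists, 1 per medium. By the submitters' processing notes, Picard 3.4.0, bedtools 2.31.1, SAMtools 1.22, BWA 0.7.19 and Trimmomatic 0.39 were used on build R64 (sacCer3). No source used here gives their settings. Each deposited row gives the start, end and strand of an aligned read and a mapping score from 30 to 60, with no normalization by the authors. The authors' file names state that duplicates were removed. Per the labels' protocols, DNA was cut with MseI, ligated to an adaptor, cut with BglII, amplified and selected between 200 and 1000 bp.

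A site was a distinct chromosome, strand and 5′ end on the 16 nuclear chromosomes, which gave 152129 sites from 170398 nuclear intervals in galactose and 11208 from 11531 in dextrose. Gene positions came from the RefSeq table of the same build, strands from the systematic names, and coordinates are 1-based. Distance 1 is the first base before the annotated 5′ end. Counts of 0 were read as at most 3, or 0.00197% of all sites in galactose and 0.0268% in dextrose. Python 3.11.15, numpy 2.4.6, pandas 2.3.3 and scipy 1.17.1 were used. The search for the shift was run on simulated sites drawn from the pooled tRNA profile moved by known shifts. That cannot show how the search does on profiles unlike the pooled one, such as that of SNR52.

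The genes, lists and measures were chosen with earlier results of these data known. The genes named were the members, their neighbours in the window, the other single-copy genes of RNA polymerase III and the 3 isolated tRNA genes most like each member. A planned search for A box and B box letters was not run, since no genome sequence was used here. Alternatives covered the site definition, interval end and length, mapping score, window, smoothing and strand.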

Additional observations from a re-analysis of the deposited data

How the results depend on the processing

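Of 72 alternatives, 48 left their value within 1.5 times the count, within its 95% interval or, for shifts and dense stretches, within 10 bp. This tally is lenient. The RPR1 5th percentile by 3′ ends counted as unchanged at 57.6 bp, against 153 bp, because its interval is 54 to 166 bp. Shifts were compared by size only, so the SNR52 shift with 96-base intervals counted despite a correlation of -0.0541. Requiring at least 2 intervals per site left 1 galactose site at RPR1 and 2 at SNR52, and 0 at each in dextrose. Since duplicates had been removed, this alternative does not measure support for a site. Merging sites within 5 bp left 29 and 64 in galactose, with a 5th percentile of 39 bp and a median of 326 bp at RPR1. The 3′ ends of the intervals gave 73 and 121 galactose sites, a median of 246 bp at RPR1 and a shift of -100 bp, the edge of the search, for both genes. Intervals of 96 bases gave 52 and 120 galactose sites, 1 dextrose site at RPR1, and at RPR1 a median of 235.5 bp and a shift of 65 bp. The RPR1 shift was 155 bp on the opposite strand and 165 bp over the first 300 bp, a range added after seeing the data. Within 500 bp the SNR52 median was 228 bp and the share on its gene's strand 38.7%. The first dense stretch of SNR52 began at 217 bp under both other definitions, also added after seeing the data. The cause of these changes was not tested, except that fewer intervals or merged sites give lower counts, and a shorter window a lower median, by construction. No tRNA gene had its upstream 1 kb in either member's upstream 1 kb, so leaving out such sites could change nothing. Those alternatives are nonetheless among the 48. No paired analysis was possible because each medium had 1 library. Dextrose counts of 5 and 14 limit every comparison of the media.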
